A study of Drosophila melanogaster with 3 samples.

Results

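The data described here are the Su(var)3-7-GFP regions of a 1.2 Mb interval of chromosome arm 2L that surrounds cytological division 31. They were selected by position, in an interval chosen with earlier results of these data known. Of the 30000 regions that the authors listed for the 3 replicates pooled, those with a summit on 2L from 10 to 11.2 Mb (genome build dm6) were kept. This gave 230 regions, and the rest of 2L below 22 Mb, with 4528 regions, served for comparison. Of the 230, 32 belonged to the 4055 peaks that passed the authors' reproducibility threshold, called thresholded peaks here, and 198 lay below it. Their share of 13.9% was near that of the whole list (13.5%) and of the rest of 2L (15.5%).

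The regions came from chromatin immunoprecipitation and sequencing (ChIP-seq) of whole Drosophila melanogaster embryos, 0 to 24 h old and of mixed sex. The embryos were of a transgenic line that stably expresses Su(var)3-7 with GFP (eGFP) fused to its C-terminus, and an antibody against GFP was used on sonicated chromatin. There were 3 biological replicates of this 1 group, and no group without the tag was analysed here. The tagged protein came from an insertion in 1 line, and whole embryos mix all tissues and a day of development, so a region bound in few cells and one bound weakly in many cannot be told apart. Each listed region carries the authors' signal value, for which the sources used here give no scale. The lists hold no read counts, so depth is unknown. Replicate values are given as multiples of the median of that replicate's own list of 30000 regions, and each replicate's strongest 4055 regions stand in for its thresholded peaks.

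Su(var)3-7 is a zinc-finger protein of heterochromatin, the compact repeat-rich chromatin around centromeres. It is a partner of Heterochromatin Protein 1 (HP1), and its gene was found through position-effect variegation, the patchy silencing of genes placed beside heterochromatin. On polytene chromosomes HP1 also marks some places along the euchromatic arms, and division 31 of 2L is a known one.

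The label of the interval fitted the cytological map in part. The annotated map places the genes of the interval in subdivisions 30F to 32E. Genes mapped to division 31 had their first start site at 10049580 and their last at 10544883, which is 495 kb or 41.3% of the interval. Division 31 held 118 of the 224 protein-coding genes, division 32 held 99 and subdivision 30F held 7. No HP1 profile was analysed, so the name HP1-rich could not be checked and the interval is called by its position. The sequence was like that of the rest of 2L in composition, with 41.9% G and C against 42.0% and 15.8% of bases masked as repeats against 16.8%. Annotated mobile elements covered 3.28% of its bases, against 4.39%. Its genes were closer together, at 187 protein-coding genes per Mb against 115.

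The DNA under the 5 peaks of highest signal is shown first, because their values carry the account that follows, with that under 2 weaker peaks, at Ufd4 and EMC3, as examples of windows with several copies of the searched letters. Each sequence is from the RefSeq release 6 genome (dm6 coordinates, plus strand, 5′ to 3′). It covers up to 100 bp on each side of the summit, cut back to leave out annotated untranslated bases. Capitals mark CGATA, a short element that the insulator protein BEAF-32 binds, or TATCG, which is the same letters read on the other strand. They also mark TATCGATA, the DNA replication-related element (DRE) bound by DREF, which contains CGATA on both strands, and GGTCACAC on either strand, the core of a promoter element called Motif 1.
RpL7 promoter, chr2L:10200975-10201003, just before the summit: cccactccgcggccaGTGTGACCgtttgg
Trp1 second start, chr2L:10010114-10010314: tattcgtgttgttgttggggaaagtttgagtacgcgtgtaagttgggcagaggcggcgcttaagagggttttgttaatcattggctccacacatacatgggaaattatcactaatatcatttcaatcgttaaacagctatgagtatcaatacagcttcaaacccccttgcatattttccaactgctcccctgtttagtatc
l(2)gd1 and Reps, chr2L:11106761-11106942: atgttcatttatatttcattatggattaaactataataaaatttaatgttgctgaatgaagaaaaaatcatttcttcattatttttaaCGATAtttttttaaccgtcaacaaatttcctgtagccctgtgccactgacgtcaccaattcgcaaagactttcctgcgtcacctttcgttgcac
RluA-1, chr2L:10474390-10474590: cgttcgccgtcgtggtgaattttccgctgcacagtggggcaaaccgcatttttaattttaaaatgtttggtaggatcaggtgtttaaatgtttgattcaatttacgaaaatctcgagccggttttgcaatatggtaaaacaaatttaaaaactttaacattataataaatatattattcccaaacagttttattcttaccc
CG17124 intron, chr2L:10752008-10752208: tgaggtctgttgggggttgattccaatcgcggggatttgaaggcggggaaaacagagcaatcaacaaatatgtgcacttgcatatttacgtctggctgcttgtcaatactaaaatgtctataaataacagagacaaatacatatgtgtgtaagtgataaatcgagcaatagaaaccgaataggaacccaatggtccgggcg
Ufd4, chr2L:10292366-10292536: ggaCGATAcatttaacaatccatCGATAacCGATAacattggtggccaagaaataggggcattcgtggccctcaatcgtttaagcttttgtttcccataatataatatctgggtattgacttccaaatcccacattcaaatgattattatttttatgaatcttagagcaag
EMC3 and Dpy-30L1, chr2L:10732437-10732637: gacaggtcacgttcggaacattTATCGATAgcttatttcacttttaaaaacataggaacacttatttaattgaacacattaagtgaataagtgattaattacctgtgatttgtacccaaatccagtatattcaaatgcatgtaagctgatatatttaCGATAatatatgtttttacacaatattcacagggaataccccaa
The Trp1, RluA-1 and CG17124 windows, under 3 of the 5 strongest peaks, held none of these letters in the bases shown.

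The strongest 4 peaks of the interval all lay at start sites, of genes for ribosomes, membrane traffic and RNA modification. The first lay between RpL7 (FBgn0005593), which encodes a protein of the large ribosomal subunit, and Ripalpha, which encodes an interactor of the DNA-binding replication protein A. This peak (chr2L:10200869-10201197) had a summit 45 bp inside RpL7 and a pooled signal of 1000.4, rank 68 of the whole list. Its signal was 15.3, 16.6 and 15.8 times the list median in replicates 1, 2 and 3, a mean of 15.9 ± 0.664 (SD, n = 3). The replicates were close together, and within each of them this was the highest value of the interval.

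The next was at Trp1 (FBgn0011584), which encodes a protein of the translocation channel of the endoplasmic reticulum. The peak (chr2L:10010057-10010358, signal 889, rank 83) had its summit inside the gene, 140 bp upstream of the second annotated start. Its signal was 12.9, 15.9 and 13.1 times the list median, a mean of 14.0 ± 1.67 (SD, n = 3). The third lay between l(2)gd1 (FBgn0261983), whose product acts in the endosomal sorting of Notch, and Reps, named for an Eps domain of endocytic proteins. That peak (chr2L:11106629-11106992, signal 675, rank 154) gave 13.2, 10.02 and 9.19 times the median, a mean of 10.8 ± 2.11 (SD, n = 3). Replicate 1 was high for it, and in that replicate it stood above Trp1. The fourth was upstream of RluA-1 (FBgn0051719), named as a pseudouridine synthase of the RluA type (chr2L:10474327-10474664, signal 485, rank 319). It gave 7.77, 8.65 and 6.57 times the median, a mean of 7.66 ± 1.04 (SD, n = 3), and each of its replicate values lay below those of the first 3 peaks.

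**Figure D1:**
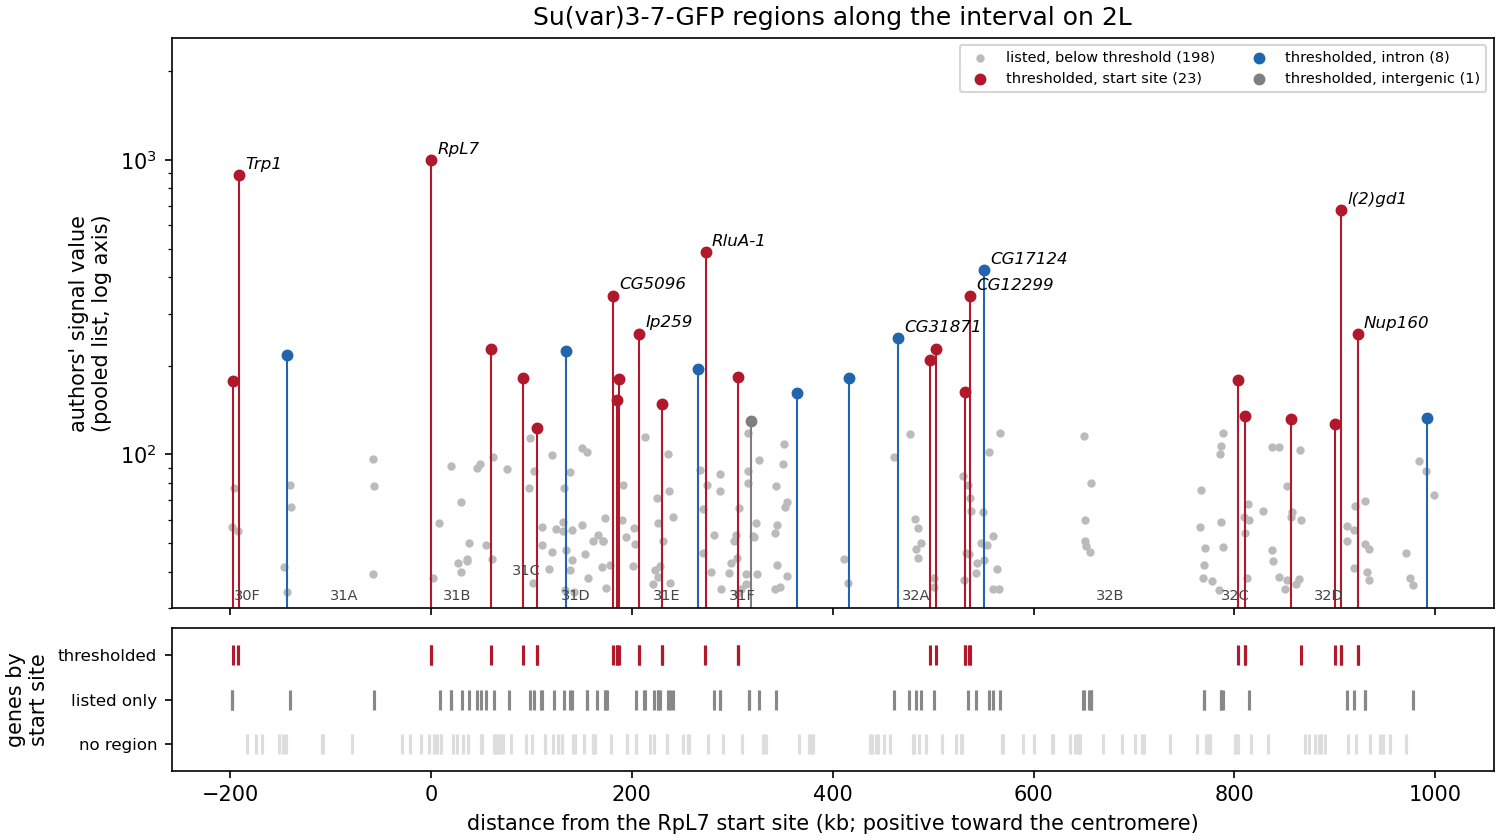
Pooled signal (log axis) of the 230 regions of the interval against distance from the RpL7 start site in kb, with the 32 thresholded peaks as stems coloured by the class of their summit, the 198 other regions as grey points and the cytological subdivisions above the axis; the lower strip marks the start sites of the 224 protein-coding genes by whether they had a thresholded peak, a listed region only or neither. Thresholded peaks were spread over the interval except for 2 stretches of 144 and 252 kb.

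The peaks next in rank were at genes of several kinds. CG5096 had a start-site peak of signal 346, whose summit lay inside gny, at 5.33 ± 0.382 times the list median (SD, n = 3). CG12299 and Vha16-5, the latter a subunit of the proton pump of acidic organelles, shared a peak of signal 344 at 5.599 ± 1.08 times. Ip259 and RpS27A, which encodes ubiquitin fused to a small-subunit ribosomal protein, have start sites on the same strand within 500 bp of 1 peak of signal 257, at 3.95 ± 0.208 times. Nup160, a nuclear pore protein, and Csl4, a subunit of the RNA exosome, shared a peak of signal 256. Its replicate values were 3.59, 5.20 and 2.43 times the median, a spread wider than its distance from its neighbours in rank. The order of close neighbours was not the same in every replicate, as for CG12299, which was above CG5096 in replicates 1 and 3. The start-site peak of CG6415 had a signal of 228, and that of CG7300 had 210.

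Below these came peaks of genes with roles in the cytoskeleton, protein turnover and transcription. Myo31DF, an unconventional myosin needed for left-right asymmetry, and CG6094 shared a peak of signal 183. Ufd4, a ubiquitin ligase, had 182. The peak of da (FBgn0267821), the bHLH transcription factor daughterless, had 181 and its replicates gave 1.76, 3.64 and 2.99 times the median, a mean of 2.80 ± 0.952 (SD, n = 3). Replicate 1 was low for da, which was among the strongest regions of replicates 2 and 3. RpL9, a large-subunit ribosomal protein, had a signal of 179 with replicate values within 2.75 to 2.91 times the median, the narrowest spread of the 31 peaks listed in all 3 replicates. Ndf, a nucleosome-destabilizing factor, had 177. EMC3 of the endoplasmic reticulum membrane complex shared a peak of signal 163 with Dpy-30L1, related to a subunit of the histone H3K4 methyltransferase complexes.

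Peaks of lower signal differed in how steady they were between replicates. mRpS7, of the mitochondrial ribosome, and Cdk1, the mitotic kinase, shared a peak of signal 153 whose replicate values were 1.90, 2.67 and 0.955 times the list median (mean 1.84 ± 0.857, SD, n = 3). The nearest region within 200 bp was among the strongest of replicate 2 only, and in replicate 3 it lay below the median of the list. Counted within 500 bp of the start sites, both genes had one of the strongest regions in 2 replicates. How steady this peak was thus depends on the matching. Bug22, a protein of cilia, and the general transcription factor TfIIB shared a peak of signal 148, and dUTPase and Art8, an arginine methyltransferase, one of 135. Samuel had 132. CG4968 and CG5390 shared the lowest, of 123, whose replicate values were close, at 1.98 ± 0.223 times the median (SD, n = 3). Ge-1, a factor of mRNA decapping, had a signal of 127 and was not listed in replicate 1, with 2.97 and 1.36 times the median in the other two.

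In 23 of the 32 thresholded peaks each replicate had the matching region among its strongest, in 5 only 2 replicates did, and in 4 only 1. The thresholded list was derived from these same replicates, so some agreement was built in. The same share was not counted for the rest of 2L. Counted by overlap, regions among the strongest of all 3 replicates came to 20.8 per Mb inside and 25.8 in the rest of 2L. Of the 198 regions below the threshold, 0 had a match among the strongest regions in 3 replicates, 2 in 2, and 23 in at least 1. These counts are upper bounds, because 1 replicate region could match 2 neighbouring pooled regions. At CG6094 and Samuel the match in replicate 1 was also that of a thresholded neighbour. Just inside the threshold were CG4968 (signal 122.8), Ge-1 (127.2) and a peak between genes near Lrr47 (129.5). Just outside it were the start-site regions of Fatp1 (118.2), TTLL4A (118.1) and Ubc2 (118.0).

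**Figure D2:**
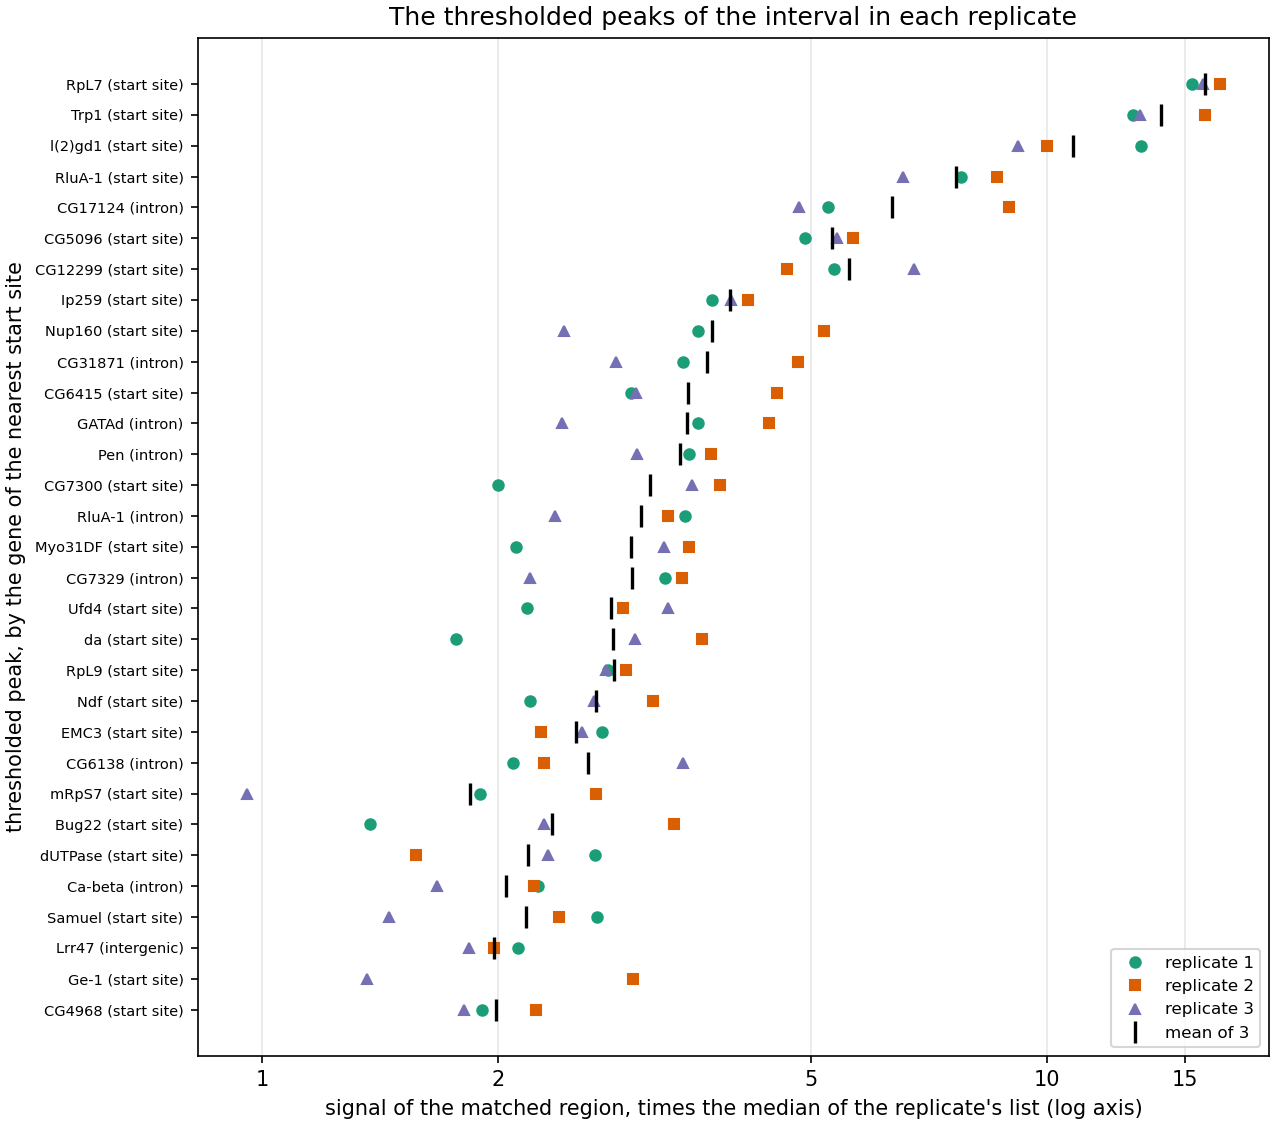
Signal of 31 of the 32 thresholded peaks of the interval in the 3 replicates, as a multiple of the median of the replicate's list (log axis), in order of pooled signal, with bars at the mean of 3 replicates. RpL7, Trp1 and l(2)gd1 stand above the rest in each replicate; Ge-1 was listed in replicates 2 and 3 only and has no mean.

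Peaks away from start sites lay almost all in introns. Introns held 8 of the 32 thresholded summits (25.0%, against 27.8% in the rest of 2L) and intergenic sequence 1 (3.13%, against 15.8%). Coding exons held 0 of 32 (95% Wilson upper limit 10.7%), against 4 of 704 in the rest of 2L. Below the threshold 45 of the 198 summits of the interval were in coding exons. Of all listed regions coding exons held 19.6%, against 16.5% in the rest of 2L. The strongest intronic peak, in CG17124 (chr2L:10751979-10752244, signal 422, rank 447), lay 4217 bp from the nearest start site. Its replicate values were 5.27, 8.96 and 4.83 times the list median, a mean of 6.35 ± 2.27 (SD, n = 3), with replicate 2 high. Other intronic peaks were in CG31871 (signal 248), in GATAd, a transcription factor of the GATA family (224), and in RluA-1 (195), 7221 bp from its start. Trim9, a ubiquitin ligase of neurons, held 2, of 182 and 161, and Ca-beta, the beta subunit of voltage-gated calcium channels, held 1 of 133. Pen, an importin alpha that carries proteins into the nucleus, held a peak of signal 218 at 523 bp from its start. With a limit of 500 bp, Pen counted as a gene with no start-site peak.

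Start-site peaks sat just upstream of transcription starts. Of the 23, 22 had their summit within 200 bp of a start site, 19 were upstream of it, and the median position was -62 bp. Of all thresholded peaks 68.8% lay within 200 bp of a start site, against 40.3% in the rest of 2L. The share upstream was not counted for the rest of 2L. These 23 peaks lay within 500 bp of the start sites of 34 genes. At 10 of the 23 (43.5%, 95% Wilson interval 25.6 to 63.2) the start sites lay on both strands, as at RpL7 and Ripalpha or at l(2)gd1 and Reps. In the rest of 2L this held for 121 of 364 start-site peaks (33.2%, 28.6 to 38.2), and the intervals overlap. These intervals on shares cover the counting of regions and nothing else, and neighbouring regions are not independent.

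The searched letters were found at some of these peaks. Within 100 bp of the summit, CGATA on either strand was present at 10 of 32 thresholded peaks (31.3%), against 28.6% in the rest of 2L, 25.1% of all 30000 listed regions and 32.8% of windows 1 kb to either side of the members. Of the windows shown, those of Ufd4 and EMC3 held 3 copies each, marked in capitals, and that of l(2)gd1 held 1. TATCGATA was present at 1 peak, that of EMC3 and Dpy-30L1 (3.13%, against 3.98% in the rest of 2L and 2.03% of all listed regions), and it accounts for 2 of the 3 CGATA copies there. GGTCACAC was present at 1 peak, that of RpL7, against 2.98% in the rest of 2L and 1.59% of all listed regions. TATAAA, the TATA box, was present at 9 (28.1%, against 25.3% and 17.7%).

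GAGAG, a repeat unit bound by GAGA factor, was found at fewer of the members than of the windows compared with them. On either strand it was present at 1 of 32 thresholded peaks, that of CG6415 (3.13%, 95% Wilson interval 0.554 to 15.7). It was present at 174 of 704 in the rest of 2L (24.7%), in 25.4% of all listed regions and in 13 of 64 windows (20.3%) 1 kb beside the members. Of the E boxes, elements of bHLH proteins such as daughterless, CAGCTG was present at 1 peak, that of Pen (against 12.5% in the rest of 2L and 11.6% of all listed regions), and CACGTG at 1, that of RpL7 (against 1.70% and 2.76%). These are letter matches over 7 searched elements, and no test was made.

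Genes of the interval did not carry start-site peaks more often than genes elsewhere. A gene counted when any start site of it lay within 500 bp of a thresholded summit, which holds for 18.4% of all 13968 protein-coding genes and for 18% of the 2396 of the rest of 2L. In the interval 34 of 224 genes did (15.2%, 95% Wilson interval 11.07 to 20.5), while 71 had only a region below the threshold and 119 had neither. The replicates gave 33, 37 and 33 genes, or 15.3% ± 1.03 against 17.9% ± 0.319 in the rest of 2L (SD, n = 3). The share was lower than that of the rest of 2L in all 3 replicates, with differences of -3.42, -1.43 and -2.80 percentage points (exact two-sided sign-flip permutation test, n = 3, p = 0.25, the smallest that 3 replicates allow). The interval of the pooled share includes the share of the rest of 2L, and the difference of -2.85 points shrank to -0.31 with borders 100 kb wider on each side.

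All 3 genes of cytoplasmic ribosomal proteins (RpL7, RpS27A and RpL9) and the 1 of a mitochondrial one (mRpS7) had a start-site peak. Of all protein-coding genes 18.4% had one. A high share among such genes was known from the whole list, but its value is not given here. These 4 are thus not independent evidence of it. Of the other genes looked up by name, Cdk1 and da had a peak. The kinase gene bsk, which encodes the Jun N-terminal kinase, had a region below the threshold of signal 92.4. The kinesin gene Klp31E had one of 115, Spn31A, of the serpin family of protease inhibitors, one of 78.5, and me31B, an RNA helicase that represses maternal mRNAs, one of 50.1. The piRNA gene piwi, whose product silences transposons in the nucleus, had one of 107. None of these 5 was among the strongest regions of all 3 replicates. Among 37 annotated non-coding RNA genes (21 lncRNA, 8 antisense RNA, 3 miRNA and 5 other), 3 had a thresholded summit within 500 bp of their start (8.11%, 95% Wilson interval 2.80 to 21.3), against 5.34% of 749 in the rest of 2L. The annotation used gave 0 tRNA, snoRNA and snRNA genes there.

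The share of genes with a start-site peak varied between subdivisions, over small counts whose differences were not tested. In subdivision 32D 5 of 22 genes had a start-site peak, in 32C 4 of 19, in 31E 5 of 26, in 31D 6 of 33, in 32A 6 of 37, in 31F 2 of 14 and in 31B 3 of 33. In 30F it was 2 of 7, in 31C 1 of 3 and in 32E 0 of 2. Subdivisions 31A (9 genes) and 32B (19 genes) held 0 genes with a start-site peak, though 31A held 1 thresholded peak, in the Pen intron. Over whole divisions the shares were close, at 17 of 118 genes in division 31 (14.4%, replicates 14.7% ± 1.29) and 15 of 99 in division 32 (15.2%, replicates 15.2% ± 1.01; SD, n = 3). The median distance between neighbouring thresholded summits was 29.1 kb, against 9.86 kb in the rest of 2L. Their density differed less, at 26.7 against 33.8 per Mb. The nearest pair, mRpS7 with Cdk1 and da, lay 1528 bp apart.

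The longest stretch without a thresholded peak ran for 252 kb, from the CG17124 intron at 10752108 to RpL9 at 11004141. It held 37 protein-coding genes and 25 listed regions. The highest of these, at TTLL4A (118.1) and Ubc2 (118.0), lay just below the lowest thresholded signal of the whole list, 118.8. The length of this stretch thus depends on the threshold. The gene piwi was among the 37. So were, singled out after their values were seen, a second piRNA gene, aub, which had no listed region at its start, and the mitotic kinase gene aurB, with a region of signal 79.7. In the rest of 2L, 8 of 702 distances between neighbours were longer, up to 483 kb. The second stretch, of 144 kb, ran from the Pen intron at 10057423 to RpL7 at 10201049 and held 6 listed regions. It held 11 genes, counting RpL7 and Ripalpha at its edge, and among the others Sur and Fum4 had no listed region at the start.

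Thresholded peaks were not denser in the interval than along the rest of 2L. It held 26.7 thresholded peaks per Mb against 33.8 (log2 ratio -0.34), and each replicate's strongest regions were lower too, with log2 ratios of -0.15, -0.18 and -0.21 (mean -0.18 ± 0.03, SD, n = 3; exact sign-flip permutation test, two-sided, p = 0.25). All listed regions came to 192 per Mb against 218 (log2 ratio -0.18). The replicates disagreed on this, with -0.14 and -0.19 in replicates 1 and 2 and 0.041 in replicate 3 (exact sign-flip permutation, n = 3, p = 0.5). Within the stretch of division 31 genes listed regions were slightly denser than outside it (0.13), and thresholded peaks were not (-0.15). Counted per gene the gap was wider, at 14.3 thresholded peaks per 100 protein-coding genes against 29.4 (log2 ratio -1.04). This count included peaks away from start sites, which were 9 of 32 inside and 340 of 704 outside. Genes were also denser in the interval (187 against 115 per Mb). The share of genes with a start-site peak differed less, at 15.2% against 18.0%.

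The thresholded share of listed regions was near the background. Its 95% Wilson interval, 10.03 to 19.0%, includes the 15.5% of the rest of 2L. Replicates 1 and 2 differed from the rest of 2L by -0.096 and 0.058 percentage points and replicate 3 by -2.34 (exact sign-flip permutation test, n = 3, p = 0.5). The median signal of the listed regions was 57.0 against 54.1, or 1.08 against 1.02 times the list median (log2 ratio 0.076). The replicates gave log2 ratios of 0.018, 0.020 and 0.033 (exact permutation p = 0.25, n = 3). Adjusted over the 6 measures compared in this way by Benjamini-Hochberg, the exact permutation p-values were 0.375 for those at 0.25 and 0.5 for the others, so none passed 0.05 and none could have.

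**Figure D3:**
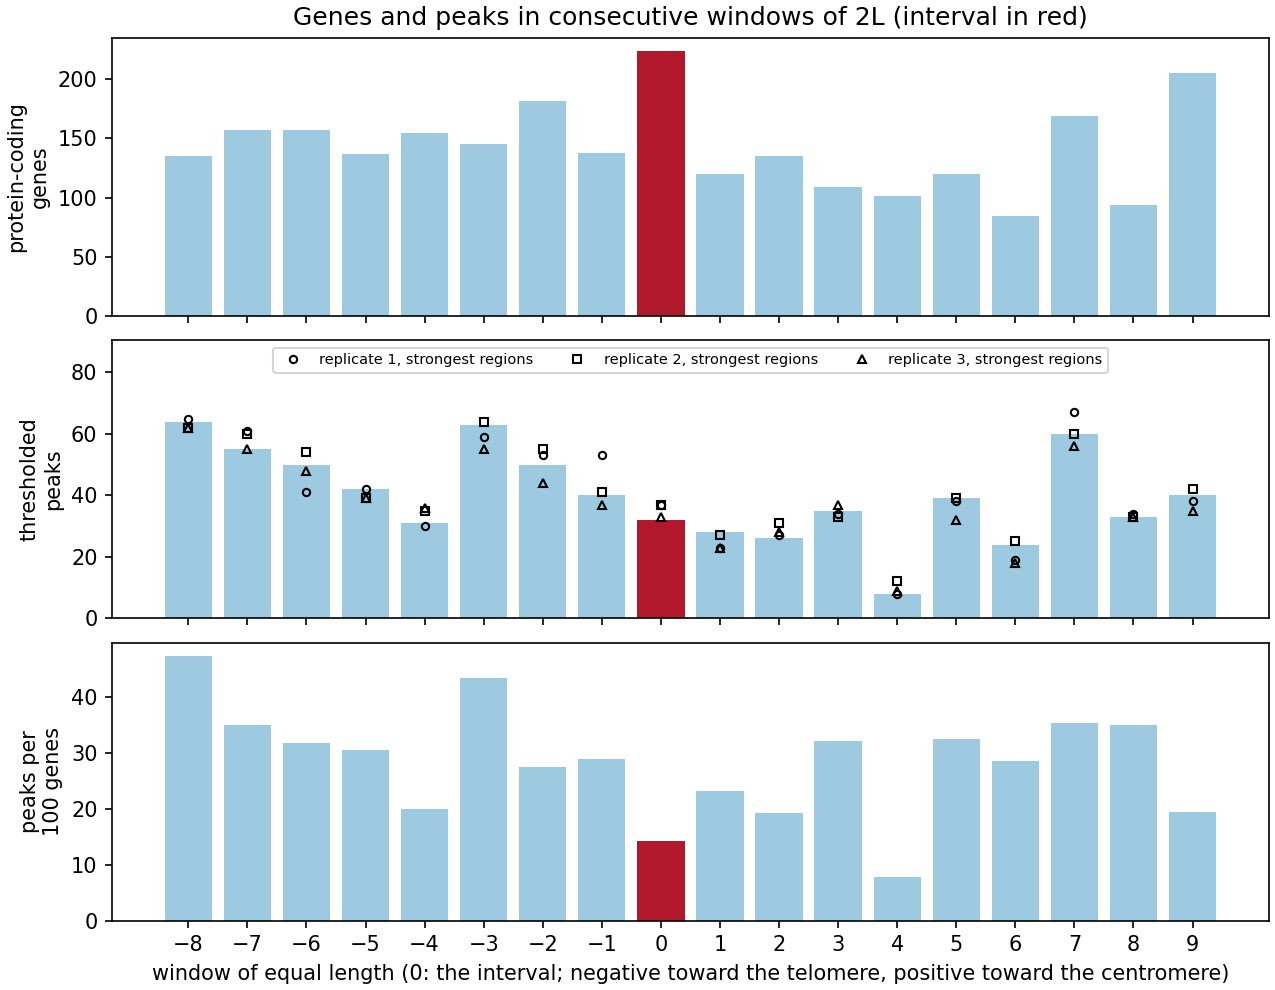
Protein-coding genes, thresholded peaks and thresholded peaks per 100 protein-coding genes in 18 consecutive windows of 1.2 Mb along 2L, with the interval in red and, in the middle panel, the strongest regions of each replicate as symbols. The interval had the most genes (224), was 13th in thresholded peaks (32) and 17th in peaks per 100 genes (14.3).

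Against 17 other windows of equal length laid along 2L, the interval had the most protein-coding genes (224, the others 84 to 205). It was 13th of 18 in thresholded peaks, with 32 where the others had 8 to 64 and a median of 40. The strongest regions of replicates 1, 2 and 3 placed it 11th, 11th and 12th. In thresholded peaks per 100 genes it was 17th, at 14.3 where the others had 7.92 to 47.4 and a median of 30.7. Neighbouring windows share no regions, and the ranks are a description.

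Thresholded peaks of the interval lay at start sites more often than those of the rest of 2L. Of the members thresholded peaks 71.9% were at start sites (23 of 32, 95% Wilson interval 54.6 to 84.4), against 51.7% in the rest of 2L (364 of 704, 48.0 to 55.4). The replicates' strongest regions gave 64.9, 73.0 and 66.7% inside and 52.1, 49.4 and 53.6% outside, means of 68.2% ± 4.26 and 51.7% ± 2.15 (SD, n = 3). All 3 values inside were above all 3 outside, by 12.8, 23.6 and 13.0 percentage points, and the mean difference of 16.5 ± 6.18 points exceeded the spread between replicates (exact sign-flip permutation test, two-sided, p = 0.25, the smallest possible). The spread between replicates does not cover differences between stretches of the arm. Of the 18 windows the interval was second in this share, whose other values ran from 25.7 to 75%.

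The same held for the listed regions as a whole. Of the 230, 105 were at start sites (45.7%, 95% Wilson interval 39.3 to 52.1), against 29.7% in the rest of 2L (28.4 to 31.1), and in the replicates 43.6% ± 3.21 against 28.6% ± 0.461 (SD, n = 3). In this share the interval was first of the 18 windows, with the others at 15.5 to 36.9%. Start sites themselves were denser in the interval, at 243 per Mb against 160, and the part of that density in the higher shares was not tested. Once a region was at a start site it was not thresholded more often. Of the listed start-site regions 21.9% were thresholded (15.1 to 30.7) against 27.1% (24.8 to 29.5) in the rest of 2L. Away from start sites 9 of 125 were (7.20%, 3.83 to 13.1) against 10.7% (9.66 to 11.8). The replicates gave 22.8% ± 3.99 against 27.6% ± 0.836 at start sites and 8.22% ± 1.89 against 10.4% ± 0.842 away from them (SD, n = 3), and replicates 1 and 3 were lower at start sites than the rest of 2L while replicate 2 was not (27.3% against 26.7%).

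**Figure D4:**
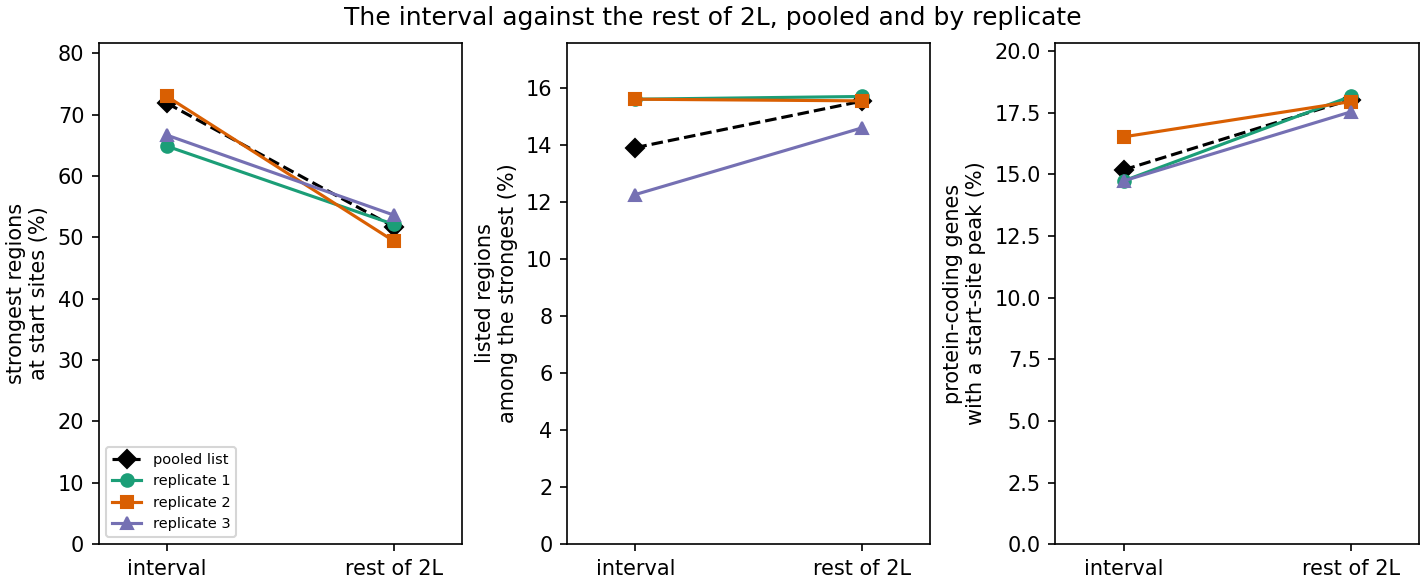
Share of strongest regions at start sites, share of listed regions among the strongest, and share of protein-coding genes with a start-site peak (all in percent, axes from 0), for the interval and the rest of 2L, in the pooled list (thresholded peaks, dashed) and in each replicate. The lines of the first panel all fall from the interval to the rest of 2L, from 64.9 to 73.0% in the replicates down to 49.4 to 53.6%.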

How the data were processed

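The authors listed regions per replicate and for all 3 pooled, each time with 1 control file, and a thresholded list was derived from them by the irreproducible discovery rate, per the deposited inventory texts. The sources used here name no aligner, caller, cutoff or version. Signal values are the deposited ones; their scale is not stated. 1 gene's peak and 1 sequence are not reported here. The dm3 lists and the control reads were not used here. All value columns were assigned to a sample or to the pool (0 left over).

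Summits were placed on dm6. Start sites (19630, of 13968 protein-coding genes) came from Ensembl release 115, and the genome sequence, the mobile elements and the cytological map from the files of the reference annotation. A summit up to 500 bp from a start site was classed there first, then by coding exon, other exon, intron or intergenic. A region's replicate value was that of the nearest summit within 200 bp. Interval and rest of 2L were compared by 95% Wilson intervals and by exact sign-flip permutation over replicates. If the replicates are not separate collections, their spread is technical. Genes named were those at the 20 strongest start-site peaks and at the peaks elsewhere, of which 10 were planned and 9 existed. Also named were 13 listed genes where they lay inside, the ribosomal protein genes and the members beside the threshold. The other genes with a peak were added after their values were seen. The interval, lists and alternatives were chosen with earlier results of these data known. The counting was tested on simulated data. Python 3.11.15, NumPy 2.4.6, pandas 2.3.3, SciPy 1.17.1, statsmodels 0.14.6 and matplotlib 3.10.9 were used.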

Additional observations from a re-analysis of the deposited data

How the results depend on the processing

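Results are given as interval minus rest of 2L. The lower density of listed regions turned to a log2 ratio of 0.046 with borders 100 kb wider and of 0.13 in the stretch of division 31 genes; it kept its sign in the other 6 of 8 alternatives, down to -0.30. The lower thresholded share turned to 0.31 percentage points (8.26% against 7.95%) when the stronger 50% of the thresholded peaks were counted, and kept its sign in 10 of 11, down to -3.60. The cause was not tested. The signs of the other measures held in every alternative run: density of thresholded peaks in 11 (-1.04 to -0.13), share of genes in 12 (-4.67 to -0.31 points), share of thresholded peaks at start sites in 11 (14.1 to 28.4 points) and median signal in 7 (log2 0.019 to 0.083). Leaving out each replicate in turn was done differently by measure. For listed density and median signal the other replicates' own lists were averaged, with log2 ratios of -0.16 to -0.045 and 0.019 to 0.027. For the other measures, pooled regions were counted that overlapped the strongest regions of both other replicates. The pooled list itself still came from all 3 replicates. Thresholded density then gave log2 ratios of -0.34 to -0.25. The differences were -1.31 to -0.65 points in thresholded share, -3.21 to -1.77 in genes and 15.4 to 19.96 in start-site share. No comparison between groups, paired or not, was possible because there is a single group of samples. The permutation tests were paired within each replicate, as they compare parts of 1 list. With 32 thresholded peaks the shares of the interval have wide intervals, and read depth is unknown.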
